A study of Homo sapiens with 6 samples.

Results

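S100 proteins and annexins are families of calcium-binding proteins, and their transcripts were followed here in celecoxib-treated AGS, a human cell line derived from a stomach carcinoma. Members were the genes whose single annotated symbol begins with S100, or with ANXA and a number, with ANXA2 pseudogenes left out, and the transcript cluster with the highest mean over all arrays stood for each gene. The rule used names and levels and not the difference between the groups, but it was chosen with earlier results of these data known. It found 36 of the 18417 genes measured, 21 for S100 proteins, 11 for annexins and 4 that share the symbol only. The 21 include S100A7L2, which is annotated as a pseudogene. These 4 are S100PBP, a protein that binds S100P, ANXA2R, named as a receptor of annexin A2, and the non-coding transcripts ANXA2R-AS1 and ANXA2R-OT1. ANXA8 and its copy ANXA8L1 share their clusters, so neither was counted.

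Cells were seeded, cultured for 48 h and then kept for 24 h with 20 µM celecoxib, an inhibitor of the prostaglandin-producing enzyme cyclooxygenase-2, or as controls labelled as given none. Each group had 3 arrays of the HuGene-1_0-st design, which reads each gene with probes along its transcript, each starting from 250 ng of total RNA. All arrays came from this 1 cell line. The labels call the arrays biological replicates but speak of pooling after the RNA check, so the p-values measure only the spread between these arrays, which may be a technical one. The drug's solvent was DMSO. No source used here says if the controls were given it.

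S100 proteins are small proteins with a pair of EF-hand calcium-binding loops that act mostly as dimers: calcium opens a surface that grips other proteins, and some members are released from cells and bind surface receptors. Annexins bind acidic phospholipids when calcium rises and organise membranes during vesicle traffic, repair and contact with the actin cortex. The families meet in complexes, the best known being S100A10 with annexin A2 and S100A11 with annexin A1. Several S100 genes are used as markers of gastrointestinal carcinoma, S100P among them, while S100A8, S100A9 and S100A12 are abundant in myeloid cells.

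All values are log2 levels made by the array method RMA, and every difference is celecoxib minus control on that scale. A gene was called expressed where its mean over the 6 arrays was above 6.79, the median of all transcript clusters. This limit kept 17 of the 36 members, 8 S100 proteins, 8 annexins and S100PBP. The dimmest member above it was S100A13 (7.17) and the brightest below it S100A9 (6.55). Levels of different genes depend on their probes and were otherwise not compared. The epithelial markers EPCAM, KRT8, KRT18, KRT19, CLDN3 and CLDN4 were all expressed. Their mean lay between 10.72 and 10.74 on celecoxib arrays and between 10.77 and 10.81 on control arrays, and the part of this shift in the results was not tested. Of the myeloid markers, PTPRC, CD14, ITGAM and FCER1G were below the limit and LYZ, also a gastric gene, and CSF1R were above it. The mean of the 6 myeloid markers lay between 7.06 and 7.12 on celecoxib arrays and between 6.97 and 7.22 on control arrays. Among the lymphoid, fibroblast, endothelial and melanocyte or glial markers, 1 of each list was above the limit, and the list means overlapped between the groups.

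None of the 36 members passed an adjusted p of 0.05 in a limma fit across all genes, where 0.141% of genes did so (26 of 18417), 0.0760% higher and 0.0652% lower. The smallest adjusted p among them was 0.120. At an unadjusted limma p under 0.05 there were 9 members, 2 higher and 7 lower, which is 25.0% of the members, against 11.3% of all genes. The lower ones made up 19.4% of the members, against 4.44% of all genes, and the higher ones 5.56%, against 6.87%. The groups did not overlap in the same 9 members (25.0%), against 19.0% of all genes, and 7 of them were lower (19.4%), against 7.95%. An array reads RNA of all cells together, so fewer cells with a transcript and less of it per cell cannot be told apart. Of these 9, 5 were expressed: ANXA3, ANXA11 and ANXA1 were lower with celecoxib, and ANXA4 and S100P were higher. These 5 were 29.4% of the 17 expressed members, and groups were apart in 24.0% of all 10873 expressed genes. The lower ones made up 17.6% of the expressed members, against 8.21% of all expressed genes. Over the 36 members the median difference was -0.024, with 17 higher and 19 lower, beside a median of -0.0068 over all genes. Over all 17 expressed members it was 0.035, with 11 higher and 6 lower. That balance varied with the fit: without celecoxib 1 the median was -0.024, with 7 higher and 10 lower. Without any other single array it lay between 0.011 and 0.064, and without control 2 there were 9 higher and 8 lower. With the small RNA level of each array as a covariate, described further on, it was -0.17, with 4 higher and 13 lower.

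The 250 bases before the start of these 5 genes are shown, since they are the expressed members whose groups did not overlap. Where a gene has several annotated starts, only the outermost was used, here and in the shares below. The stretches are RefSeq sequences of GRCh38.p14, read 5′ to 3′ on the gene's strand. Capitals mark matches on either strand to GGGCGG (the GC box), TATAAA (the TATA box), TGANTCA (AP-1) and GGAATG (TEAD). Matches that overlap run together.
ANXA3, chr4:78551520-78551769, plus strand: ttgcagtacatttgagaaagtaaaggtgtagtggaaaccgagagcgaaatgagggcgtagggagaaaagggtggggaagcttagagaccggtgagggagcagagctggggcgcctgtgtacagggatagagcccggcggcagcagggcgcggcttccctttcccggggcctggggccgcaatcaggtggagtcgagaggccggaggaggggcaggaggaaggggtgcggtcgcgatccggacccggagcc
ANXA11, chr10:80205809-80206058, minus strand: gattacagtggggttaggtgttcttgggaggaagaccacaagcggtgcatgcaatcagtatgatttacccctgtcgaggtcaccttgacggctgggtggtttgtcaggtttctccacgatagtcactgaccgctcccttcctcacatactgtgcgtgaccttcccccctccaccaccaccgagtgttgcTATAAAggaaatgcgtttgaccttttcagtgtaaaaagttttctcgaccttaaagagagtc
ANXA1, chr9:73151615-73151864, plus strand: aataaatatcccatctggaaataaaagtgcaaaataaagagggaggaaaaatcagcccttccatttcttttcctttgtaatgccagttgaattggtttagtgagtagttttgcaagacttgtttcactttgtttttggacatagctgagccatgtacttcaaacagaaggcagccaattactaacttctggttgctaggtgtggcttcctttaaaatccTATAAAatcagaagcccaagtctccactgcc
ANXA4, chr2:69643558-69643807, plus strand: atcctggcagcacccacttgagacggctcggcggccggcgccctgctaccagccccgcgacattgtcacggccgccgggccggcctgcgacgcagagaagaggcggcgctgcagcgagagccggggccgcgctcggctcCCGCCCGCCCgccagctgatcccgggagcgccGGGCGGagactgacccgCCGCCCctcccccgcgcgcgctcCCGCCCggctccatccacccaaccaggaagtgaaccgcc
S100P, chr4:6693628-6693877, plus strand: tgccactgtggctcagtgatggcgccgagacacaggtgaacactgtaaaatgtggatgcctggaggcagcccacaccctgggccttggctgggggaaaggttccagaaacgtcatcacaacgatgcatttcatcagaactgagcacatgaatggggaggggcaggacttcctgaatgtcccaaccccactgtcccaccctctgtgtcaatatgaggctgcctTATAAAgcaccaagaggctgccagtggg

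No match was common to the 3 annexins with lower values. The ANXA3 stretch held none of the 4 motifs. ANXA11 and ANXA1 each held 1 TATA box match. The ANXA4 stretch was 77.2% G or C and held 5 GC box matches, and S100P held 1 TATA box match. A window was found for 33 of the 36 members, and 12 of the 33 (36.4%) held a TATA box match, against 8.70% of the 14238 windows of genes tested. GC box matches were in 33.3% of member windows and 57.2% of the genes tested, AP-1 matches in 12.1% and 4.87%, and TEAD matches in 3.03% and 10.1%. The members with an AP-1 match were ANXA2, S100A2, S100A3 and S100A12, of which only ANXA2 was expressed. In the windows of the 17 expressed members the shares were 29.4% for the TATA box, 47.1% for the GC box, 5.88% for AP-1 and 5.88% for TEAD. A match describes letters in this window and not a bound site.

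The annexins were taken first. ANXA3, a phospholipid-binding annexin of epithelial and myeloid cells, stood at 11.28, 11.15 and 11.07 on the celecoxib arrays and at 11.55, 11.43 and 11.56 on the control arrays. All 3 celecoxib values lay below all 3 control values, with a gap of 0.150 between the groups. The difference was -0.35 ± 0.08 (SE, n = 3 per group, limma adjusted p = 0.216), a 1.27-fold lower level, with a 95% interval from -0.53 to -0.16. It was the expressed member with the smallest p, and the adjusted p missed the threshold.

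ANXA11, an annexin with a long flexible amino-terminal tail that binds the calcium sensors S100A6 and PDCD6, was at 9.97, 10.07 and 10.01 with celecoxib and at 10.25, 10.31 and 10.19 in the controls. The spread within a group was small, with SDs of 0.046 with celecoxib and 0.061 in the controls, and the groups were 0.124 apart. Its difference was -0.24 ± 0.07 (limma adjusted p = 0.312).

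ANXA1, which is known as an anti-inflammatory mediator through formyl peptide receptors, was at 11.10, 10.88 and 10.90 with celecoxib and at 11.19, 11.11 and 11.30 in the controls. The groups came within 0.012 of each other, as celecoxib 1 lay just under control 2. The difference was -0.24 ± 0.09 (limma adjusted p = 0.376).

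ANXA4, an annexin of secretory epithelia, had the opposite sign. It was at 10.80, 10.55 and 10.57 with celecoxib and at 10.38, 10.27 and 10.43 in the controls, so the groups did not overlap, and celecoxib 1 was the highest. The difference was 0.28 ± 0.09 (SE, n = 3 per group, limma adjusted p = 0.338). It was 1.21-fold higher, with an interval from 0.07 to 0.49.

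**Figure D1:**
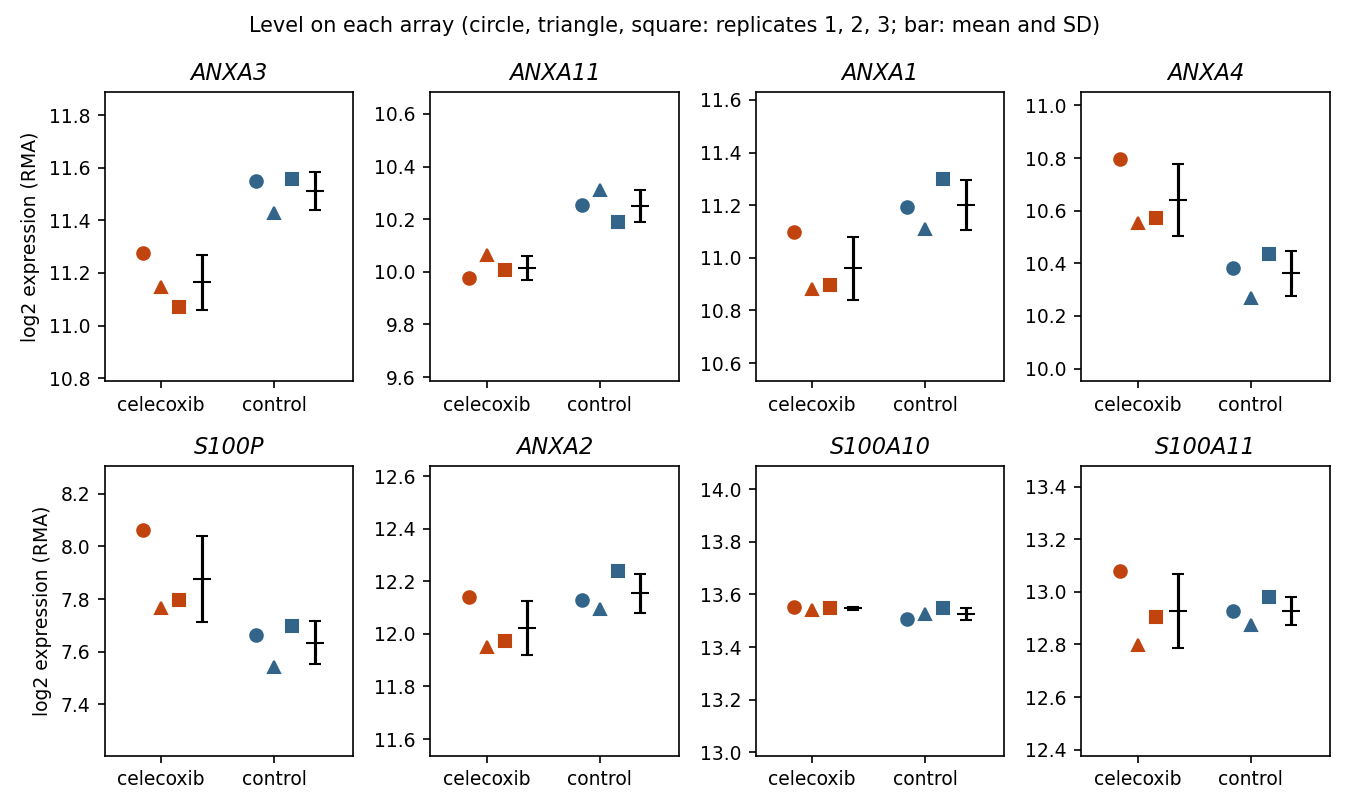
Log2 RMA level on each array for 8 expressed members, celecoxib left and control right, with the mean and SD of 3 arrays beside the points and an axis of equal length in every panel. The groups are apart in ANXA3, ANXA11, ANXA1, ANXA4 and S100P and overlap in ANXA2, S100A10 and S100A11, and the circle of celecoxib 1 is the highest celecoxib point in every panel but ANXA11.

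ANXA2, the partner of S100A10 and a protein that links membranes to actin and plasminogen, was at 12.14, 11.95 and 11.97 with celecoxib and at 12.13, 12.09 and 12.24 in the controls. Celecoxib 1 lay within the control range and the other celecoxib arrays below it. The difference was -0.13 ± 0.08 (limma adjusted p = 0.547), with an interval from -0.32 to 0.05. ANXA2 has processed copies elsewhere in the genome whose probes may read the same transcript, so its value carries that uncertainty. The clusters of the copies ANXA2P1, ANXA2P2 and ANXA2P3 differed by -0.089 ± 0.126, -0.055 ± 0.077 and 0.089 ± 0.153 (SE). A cluster annotated with both SNU13 and ANXA2, left out for having several symbols, differed by 0.038 ± 0.118.

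The other expressed annexins differed by about 0.1, and their groups overlapped. ANXA6, which carries a doubled annexin core and binds cholesterol-rich membranes, differed by 0.12 ± 0.09. ANXA7, a chromaffin-granule fusion annexin also named synexin, differed by 0.097 ± 0.088, and ANXA9, an annexin with degenerate calcium sites, by 0.095 ± 0.101. Without celecoxib 1 the 3 differences were 0.051, 0.017 and -0.0021, and with the small RNA level of each array as a covariate, described further on, they were -0.063, -0.091 and -0.13. Without control 2 they were 0.063, 0.060 and 0.055. Among the 8 expressed annexins, 4 were higher and 4 lower, with a median of -0.019. That median was -0.097 without celecoxib 1 and between -0.054 and 0.019 without any other single array. With the small RNA covariate it was -0.15, with 1 higher and 7 lower. The median size of the differences of these 8 annexins, signs left aside, was 0.184, beside 0.0963 over all 10873 expressed genes. It was 0.0598 over the 8 expressed S100 proteins and 0.104 over all 17 expressed members.

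ANXA5, the annexin used as a probe for exposed phosphatidylserine on dying cells, was below the limit for expression in this table. It is singled out after its values were seen. It stood at 6.27, 6.02 and 6.19 with celecoxib and at 6.63, 6.44 and 6.75 in the controls, and the groups were 0.163 apart. The difference was -0.45 ± 0.10 (limma adjusted p = 0.216), the most negative of the annexins. ANXA10, a gastric-lineage annexin, and ANXA13, an intestinal and kidney annexin, were also below the limit, with means over 6 arrays of 5.41 and 4.94, and each differed by -0.056.

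The S100 genes followed. S100P, an S100 protein released by gastrointestinal tumour cells, was at 8.06, 7.76 and 7.80 with celecoxib and at 7.66, 7.54 and 7.70 in the controls. The groups were 0.066 apart, and celecoxib 1 was again highest. The difference was 0.24 ± 0.10 (SE, n = 3 per group, limma adjusted p = 0.413). It was 0.15 without celecoxib 1 (adjusted p = 0.606). S100PBP, its nuclear binding partner, differed by 0.035 ± 0.076.

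S100A10, the annexin A2 ligand that cannot bind calcium, was nearly constant. It was at 13.55, 13.54 and 13.55 with celecoxib and at 13.51, 13.53 and 13.55 in the controls, a difference of 0.022 ± 0.063 (limma adjusted p = 0.908) with an interval from -0.12 to 0.17. Saturation was not tested. S100A11, the annexin A1 ligand, was at 13.08, 12.80 and 12.90 with celecoxib and at 12.93, 12.87 and 12.98 in the controls. It differed by 0.00041 ± 0.08743, and its interval ran from -0.20 to 0.20.

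The S100 and the annexin of each known complex are set side by side. S100A10 differed by 0.022 where ANXA2 differed by -0.13, and S100A11 differed by 0.00041 where ANXA1 differed by -0.24. S100A6 differed by 0.10 where ANXA11 differed by -0.24. No test was made of these pairs against each other.

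S100A6, or calcyclin, a protein of proliferating epithelial and stromal cells, was at 9.36, 8.94 and 9.01 with celecoxib and at 9.02, 8.97 and 9.01 in the controls. Only celecoxib 1 stood away from the rest, and the difference was 0.10 ± 0.11 (limma adjusted p = 0.736). S100A4, known for binding non-muscle myosin and for its part in metastasis models, was at 7.43, 7.06 and 7.27 with celecoxib and at 7.16, 7.23 and 7.004 in the controls. Its groups overlapped, with a difference of 0.12 ± 0.11 (limma adjusted p = 0.682).

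The remaining expressed S100 genes were S100A16, a widely expressed member, S100A14, an epithelial member, and S100A13, which is exported with fibroblast growth factor 1. They differed by 0.035 ± 0.129, -0.049 ± 0.120 and -0.071 ± 0.131. In each the spread between arrays of 1 group exceeded the difference. Over the 8 expressed S100 proteins, 6 were higher and 2 lower, and the median difference was 0.028. Without celecoxib 1 it was -0.050, with 3 higher and 5 lower, and without control 2 it was -0.0026, with 4 in each direction. With the small RNA covariate it was -0.17, with 2 higher and 6 lower. Without celecoxib 1, S100A6 was at -0.024 and S100A4 at 0.032.

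S100A8 and S100A9, which pair as calprotectin, a zinc-chelating protein of neutrophils and inflamed epithelium, were below the limit. S100A8 was at 5.02, 4.83 and 5.06 with celecoxib and at 4.95, 4.93 and 4.61 in the controls, a difference of 0.14 ± 0.11. S100A9 was at 6.43, 6.29 and 6.64 with celecoxib and at 6.59, 6.59 and 6.79 in the controls, a difference of -0.21 ± 0.11 (limma adjusted p = 0.488). Both pairs of groups overlapped, and the signs were opposite.

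The member with the smallest p of all 36 was S100A3, an S100 protein of hair cuticle, singled out after its values were seen. It was at 5.30, 5.20 and 5.19 with celecoxib and at 5.85, 5.54 and 5.79 in the controls, and the groups were 0.244 apart. The difference was -0.50 ± 0.09 (SE, n = 3 per group, limma adjusted p = 0.120), a 1.41-fold lower level. Its mean of 5.48 was under the limit for expression, and its signal over background was not analysed here. S100A7A, a relative of psoriasin, and S100A5, a member of olfactory neurons, were dim as well. They differed by -0.39 ± 0.14 and -0.25 ± 0.10, with groups apart. S100A7A was at -0.25 without control 3, and S100A5 at -0.14 without celecoxib 2.

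The other 15 members below the limit had overlapping groups, S100A8, S100A9, ANXA10 and ANXA13 among them. Their differences ran from -0.21 to 0.14, and the smallest adjusted p was 0.488. They also include the myeloid S100A12, the keratinocyte S100A7 (psoriasin), S100A7L2, annotated as a pseudogene, the basal epithelial S100A2, the muscle S100A1, the glial S100B, the intestinal S100G (calbindin D9k), S100Z, ANXA2R, ANXA2R-AS1 and ANXA2R-OT1. All values of members below the limit lay between 3.21 and 6.79 on single arrays.

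**Figure D2:**
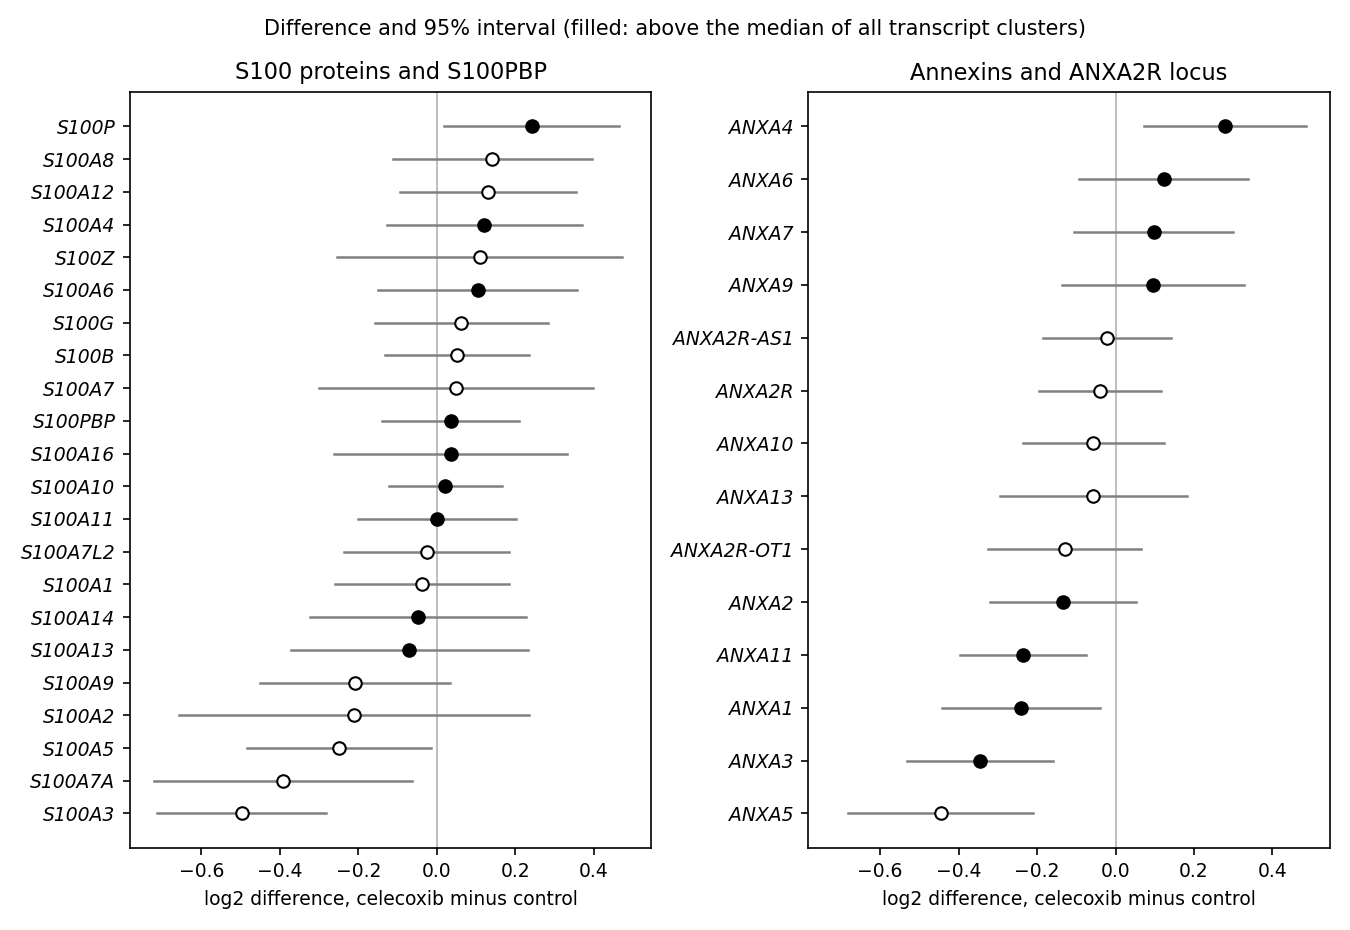
Log2 difference, celecoxib minus control, with the 95% interval of the limma fit for all 36 members, S100 genes left and annexin genes right, filled where the mean was above the median of all transcript clusters. Intervals leave out 0 in 9 members, of which S100P and ANXA4 lie above 0, and none passed the adjusted threshold.

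Of the 21 S100 protein genes, 17 lie on chromosome 1, the pseudogene S100A7L2 included, and most of these are neighbours in 1 cluster. Adjacent genes did not all have the same sign. S100A3 and S100A5 differed by -0.50 and -0.25, with groups apart. S100A4, which lies between them, differed by 0.12 and S100A6, on the other side of S100A5, by 0.10, both with overlapping groups. The S100-fused type proteins, large EF-hand proteins of cornified skin whose genes lie in the same region, were all below the limit for expression. All 6 measured of 7 had negative differences, with a median of -0.12, and 0 passed. FLG, which encodes filaggrin, differed by -0.38 ± 0.08 (limma adjusted p = 0.199), CRNN by -0.19 ± 0.12 and TCHHL1 by -0.14 ± 0.11.

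Values of expressed members varied with the array within each group. Celecoxib 1 was the highest of the 3 celecoxib arrays in 15 of the 17 (88.2%), against 43.4% of all expressed genes, and control 3 was the highest control in 13 of 17 (76.5%), against 35.5%. The median deviation of the 17 from their own means was 0.20 on celecoxib 1, -0.098 on celecoxib 2 and -0.053 on celecoxib 3, and -0.028, -0.087 and 0.055 on controls 1 to 3. Celecoxib 1 also stood furthest from the other arrays over all genes, on a first principal component that held 44.9% of the variance. The median level of 207 small nuclear, nucleolar and Cajal body RNA genes was 7.68, 7.27 and 7.27 on the celecoxib arrays and 7.14, 7.01 and 7.14 on the controls. With this level as a covariate, an alternative chosen after seeing the data, the difference was 0.017 for S100P, 0.087 for ANXA4, -0.17 for ANXA11, -0.41 for ANXA1 and -0.49 for ANXA3, and none passed.

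**Figure D3:**
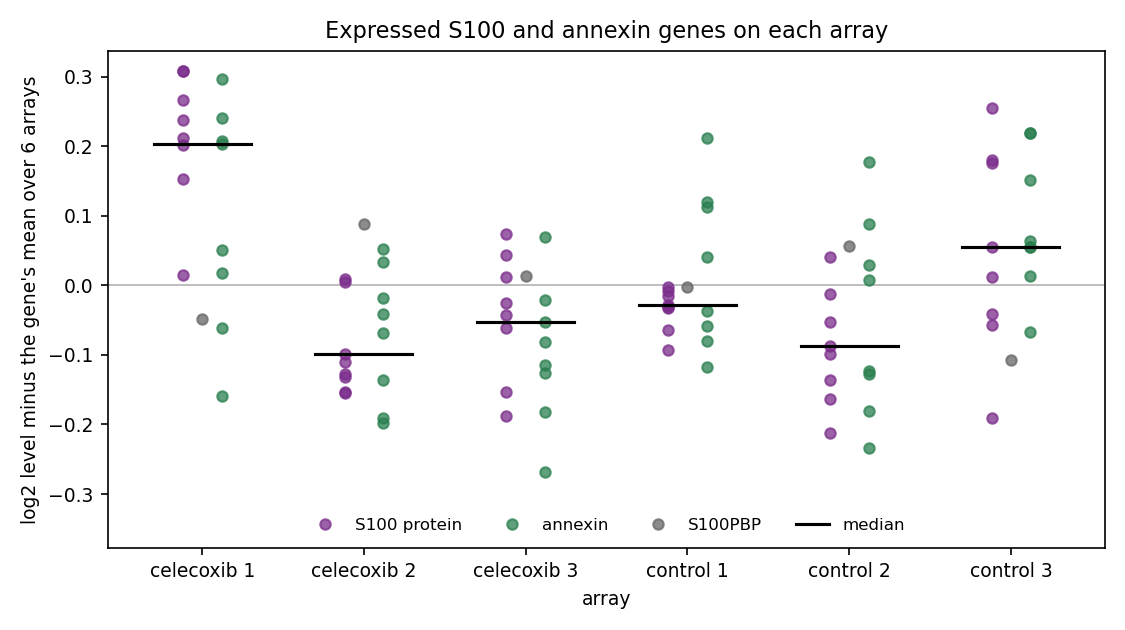
Deviation of each of the 17 expressed members from its own mean over 6 arrays (log2, vertical axis) on each array, celecoxib arrays left and controls right, with the median as a bar. On celecoxib 1 the S100 proteins all lie above 0 and the median is 0.20, and on the other celecoxib arrays the medians are -0.098 and -0.053.

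Known partners were compared next, as lists drawn up for these families and described by counts. Of 23 binding partners, 21 were measured, 10 higher and 11 lower, with a median of -0.042, and 0 passed over all genes. The members with the smallest p were AHNAK, the giant scaffold bound by the S100A10 and annexin A2 complex, MYH9, the non-muscle myosin heavy chain bound by S100A4, and PLAT, the plasminogen activator that docks on annexin A2. AHNAK was at 9.57, 9.70 and 9.70 with celecoxib and at 9.99, 10.02 and 9.97 in the controls, a difference of -0.33 ± 0.07 (limma adjusted p = 0.166) with groups apart. MYH9 differed by -0.70 ± 0.15 (adjusted p = 0.197) and PLAT by -0.34 ± 0.09 (adjusted p = 0.282), both with groups apart. In the whole list the groups were apart in 23.8%, 4 lower and 1 higher, against 19.0% of all genes. The lower ones made up 19.0% of the list, against 7.95% of all genes.

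Of 15 surface receptors for released S100 proteins and annexin A1, 14 were measured, 6 higher and 8 lower, with a median of -0.029, and 0 passed. GPC1, a heparan sulfate proteoglycan, differed by -0.25 ± 0.07 (limma adjusted p = 0.314). FPR1, a formyl peptide receptor that binds annexin A1, was below the limit and differed by -0.31 ± 0.11. ALCAM, an adhesion molecule that S100 proteins bind, differed by 0.12 ± 0.09.

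Genes of plasma membrane repair, in which annexins form a cap over a wound, were lower in 18 of 19 measured (21 were listed), with a median of -0.11. Over all genes 52.1% were lower. The groups did not overlap in 21.1% of the list, all lower, against 19.0% of all genes in both directions and 7.95% lower. The list mean was 8.27, 8.38 and 8.29 on the celecoxib arrays and 8.40, 8.48 and 8.39 on the controls. The list was not fitted again without celecoxib 1. No gene of the list passed the threshold. MYOF, the ferlin myoferlin, was at 11.27, 11.45 and 11.44 with celecoxib and at 11.69, 11.66 and 11.59 in the controls, a difference of -0.26 ± 0.08 (limma adjusted p = 0.312) with groups apart. CAV1 and CAVIN1, of caveolae, differed by -0.28 ± 0.11 and -0.24 ± 0.10, and CAV1 was below the limit for expression. The exception was STX4, a membrane fusion syntaxin, at 0.074 ± 0.108.

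Other EF-hand calcium sensors had no common direction, with 15 higher and 12 lower of 27 measured (30 were listed), a median of 0.012, and 0 passed. The smallest p were those of NCS1, a neuronal calcium sensor, at -0.26 ± 0.08, RCN2, a reticulocalbin of the endoplasmic reticulum, at 0.24 ± 0.09, and CALB1, the buffer calbindin, at -0.25 ± 0.11. CALB1 was below the limit for expression.

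**Figure D4:**
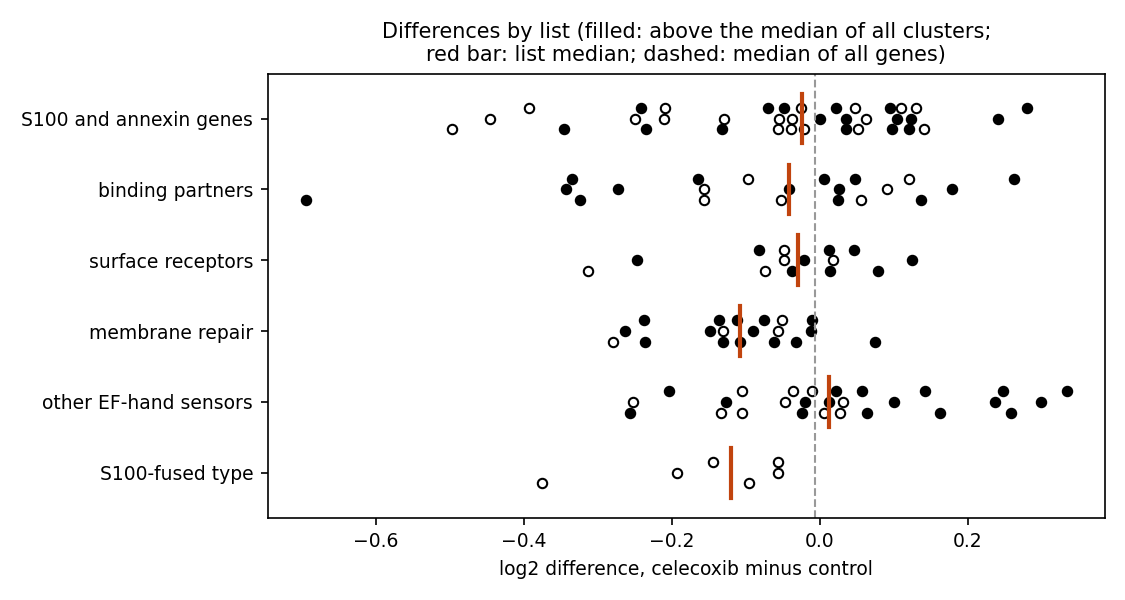
Log2 difference, celecoxib minus control, of each measured gene in the S100 and annexin set and 5 related lists, with the list median as a red bar and the median of all genes (-0.0068) as a dashed line. The membrane repair genes sit mostly left of the dashed line (median -0.11), while the S100 and annexin genes spread to both sides (median -0.024).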

How the data were processed

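The deposited log2 values come from RMA (background correction, quantile normalization and a summary per transcript cluster), run by the authors in Affymetrix Expression Console 1.1, per the submitters' processing notes. Signal over background, slide and scan date were not analysed here. Of 33297 transcript clusters, 19460 had 1 gene symbol in the platform annotation, 1754 several and 12083 were unnamed here. Keeping the brightest cluster per gene left 18417 genes. A linear model was fitted with limma 3.58.1 (lmFit, eBayes; R 4.3.3) to 3 celecoxib and 3 control arrays, two-sided, with Benjamini-Hochberg adjustment over all 18417 genes and a threshold of 0.05. It was tested on simulated data with independent noise for each gene. Those data held no shift shared by many genes of 1 array, so the test does not cover such a shift. The number of arrays limits the precision. Members and lists were chosen with earlier results of these data known. Values on every array were given for expressed members whose groups did not overlap and for S100A10, ANXA2, S100A11, ANXA1, S100A6, S100A4, S100P, S100A8 and S100A9 by rule, and for ANXA5, S100A3, AHNAK and MYOF by choice after their values were seen. Related lists were named by their 3 smallest p, and STX4 after its value was seen. Protein sequences were not used here. Figures used matplotlib 3.10.9.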

Additional observations from a re-analysis of the deposited data

How the results depend on the processing

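The count of members past an adjusted p of 0.05 was 0 in every alternative but 1: with array weights it was 3, all lower, ANXA3 (adjusted p = 0.0322), ANXA5 (0.0424) and S100A3 (0.0208). These are 3 of 36 members, in a fit that called 177 of all 18417 genes, 82 of them lower. The main fit called 26 genes. The count of members was 0 without each array in turn. The count over all genes was 76 above the median signal, 59 without the dimmest 20%, 44 after quantile normalization again, 69 with an intensity trend and 69 with a robust prior as well, 49 over protein-coding genes, 177 with array weights, 1 with the small RNA covariate and between 0 and 5 without 1 array. The replicate number as a block gave 0 (2448 at an unadjusted limma p under 0.05) and called no member. Deviations of same-numbered arrays from their group means correlated at -0.017, 0.494 and 0.012. Deviations from a mean of 3 arrays constrain each other, so these values cannot say if same-numbered arrays were paired. The median difference of all members, of S100 symbols and of ANXA symbols moved to -0.13, -0.081 and -0.14 with the small RNA covariate, and without 1 array lay between -0.066 and 0.026, between -0.025 and 0.046, and between -0.11 and -0.036. The cause was not tested. Of 36 members, 16 kept their sign in all alternatives that tested them, ANXA1, ANXA3, ANXA4, ANXA5, ANXA11, S100A3 and S100P among them. The other 20 changed sign in 38 fits in all, with an interval that included 0 both times.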
